A study of Mus musculus with 6 samples.

Results

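The genes described here are the 10 that encode the mouse TGF-beta ligands (Tgfb1, Tgfb2 and Tgfb3), their receptors (Tgfbr1, Tgfbr2 and Tgfbr3) and the latent TGF-beta binding proteins (Ltbp1, Ltbp2, Ltbp3 and Ltbp4). They were chosen by name, as a listed family, and are 10 of the 20687 gene symbols that the deposited transcript table gave. Their levels were compared between Lung_KP, 3 samples of whole lung, and CellLine_KP, 3 preparations of the KP cell line. Each Lung_KP sample pooled the lungs of 3 C57BL/6 mice that had received 100000 KP cells through the tail vein and were harvested on day 28, and the 3 samples came from independent experiments. The lungs were digested with collagenase. CellLine_KP is given as triplicates of the line on the same C57BL/6 strain, without a statement that the triplicates were separate cultures, and the labels do not give the line's genotype. All samples were measured by RNA sequencing, and no lung without injected cells was analysed here, so what normal lung tissue expresses and what the tumour-bearing state adds cannot be told apart. In bulk RNA, fewer cells of a type and less RNA per cell cannot be told apart either.

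TGF-beta is made as a precursor that is cut by furin-like proteases but stays bound to its own propeptide, which keeps it inactive. In the secretory pathway this latent complex is joined to a latent binding protein, which anchors it in the fibrillin and fibronectin matrix until integrins or proteases release it. The released dimer binds the type II receptor, which recruits and phosphorylates the type I receptor, and the type I receptor phosphorylates Smad2 and Smad3, while betaglycan, the product of Tgfbr3, presents the ligand and can also be shed as a soluble trap. In lung the pathway is known for its part in fibrosis, in alveolar development and in the restraint of immune cells.

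Library totals were between 17786758 and 22862396 estimated counts, and a count of 0 allowed up to 3 counts, or between 0.120 and 0.173 on the scale of CPM, counts relative to the scaled size of the library, as a floor that covers counting error only. Lung replicate 2 stood apart by transcript length, its genes deviating from the other lung samples by a median of 0.77 on the log2 scale in the shortest quartile and -0.99 in the longest. In log2 CPM over genes, cell line replicate 1 correlated at 0.965 with replicate 2 and 0.964 with replicate 3. Cell line replicates 2 and 3 correlated at 0.991, and the lung samples with each other at between 0.908 and 0.980. The labelled tissue was checked against markers. The 9 endothelial markers summed to between 1138 and 2276 CPM in lung and between 8.48 and 17.3 CPM in the KP line. A list of 7 genes of the line summed to between 126 and 213 CPM in lung and between 1125 and 1246 CPM in the KP line, but it was taken from earlier results of these samples and so is no check of the labels. Its lung sum was nearly all Msln, also a mesothelial marker, at 196, 122 and 209.7 CPM in the lung samples, and each of the other 6 genes lay below 2 CPM there. B and plasma cell markers summed to between 186 and 372 CPM in lung, and were not at 0 in the cell line, where they summed to between 53.3 and 101 CPM.

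All 10 genes passed the filter on low counts, and 5 of them were higher in lung: Tgfb2, Tgfb3, Tgfbr3, Ltbp2 and Ltbp4 (quasi-likelihood F test of edgeR with Benjamini-Hochberg adjustment over 15212 genes, adjusted p below 0.05, which holds for each adjusted p below). None was lower by that test, while Tgfbr2 (higher) and Ltbp3 (lower) passed an unadjusted p below 0.05. The DESeq2 Wald test called 6 higher, with Tgfbr2 added, and 1 lower, Ltbp3. Over all genes tested, 31.3% were called higher and 17.5% lower in lung, and 32.6% higher and 21.2% lower by the DESeq2 Wald test. The lung samples did not overlap the cell line samples in 6 genes, with Tgfb2, Tgfb3, Tgfbr2, Tgfbr3 and Ltbp2 above and Ltbp3 below, against 35.6% of all genes above and 26.5% below. Without lung replicate 2, 7 genes were called higher, with Tgfbr1 and Tgfbr2 added, and 1 lower, Ltbp3, against 33.1% and 24.3% of all genes in that fit. In lung replicate 2 the log2 deviation from the mean of the other lung samples was 0.02 for Tgfb1, whose transcripts were the shortest of the family at a mean of 2156 nucleotides, and between -2.11 (Ltbp4) and -0.79 (Tgfb3) for the other 9 genes. The mean transcript lengths of Ltbp4 and Tgfb3 were nearly the same, at 3392 and 3383 nucleotides.

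**Figure D1:**
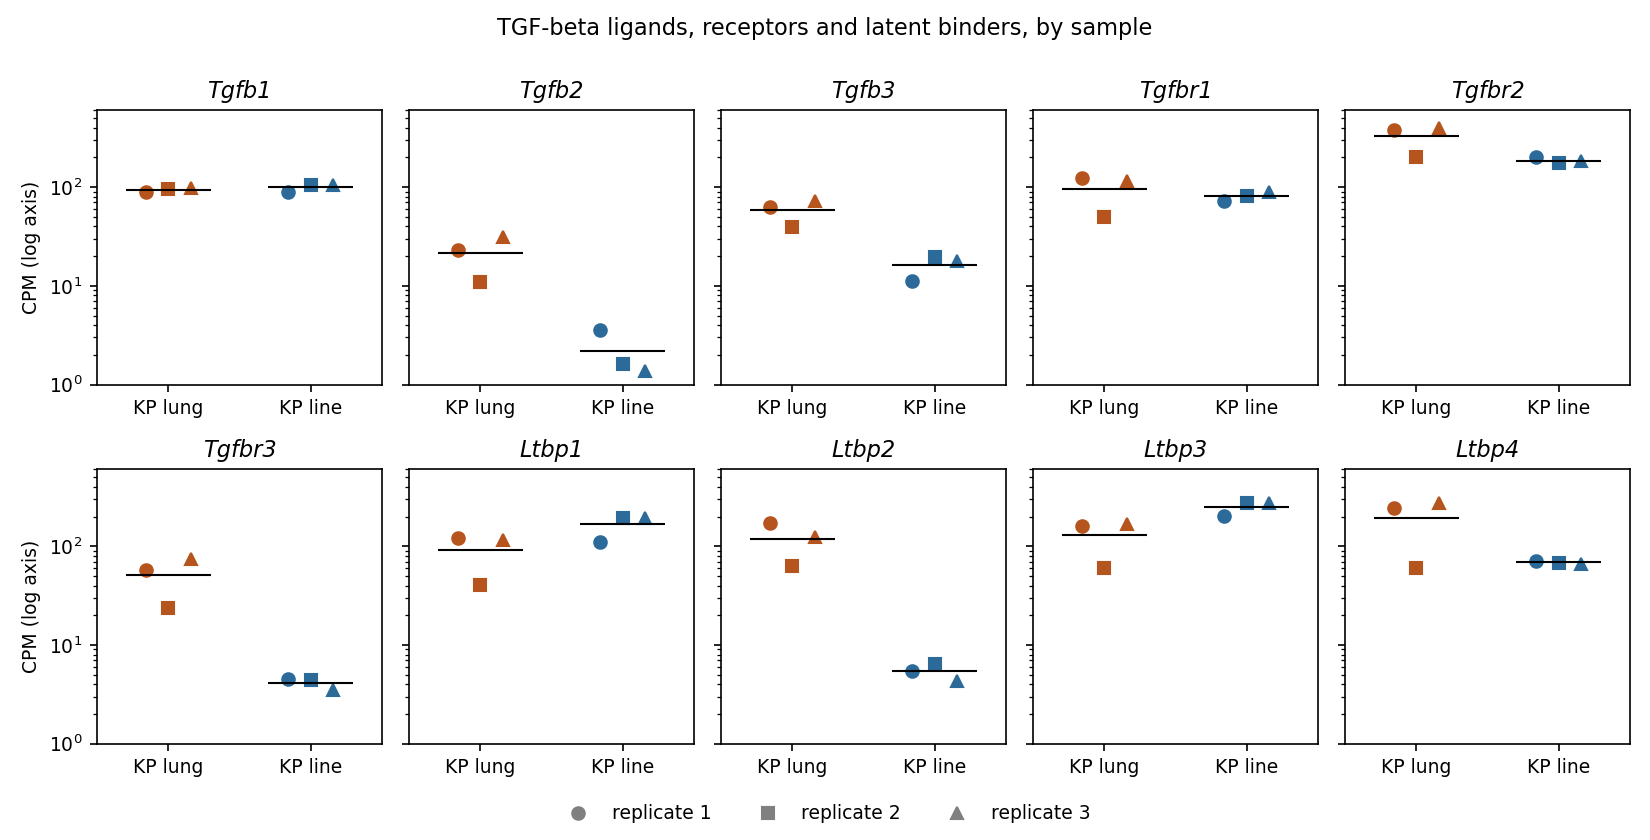
Level of each gene in CPM (log axis) in the 3 lung samples, drawn left, and the 3 cell line samples, drawn right. Each point is 1 sample and each black line a group mean. The cell line points of Tgfbr3 and Ltbp2 lie well below all lung points, and lung replicate 2 is the lowest lung sample in every gene except Tgfb1.

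Among the ligands, Tgfb2 and Tgfb3 were higher in lung and Tgfb1 was not called in either direction. Tgfb1, the isoform most abundant in immune and many epithelial cells, had 88.8, 94.8 and 98.3 CPM in lung and 89.8, 106 and 106 CPM in the KP line. The 2 ranges overlapped, and the log2 fold change, lung minus cell line, was -0.10 (SE 0.22, 95% interval -0.60 to 0.41, edgeR adjusted p = 0.741). With scaling by library size alone the sign turned to 0.14, so no direction is given for Tgfb1.

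Tgfb2, the isoform known for its part in epithelial and mesenchymal signalling during development, had 22.9, 10.9 and 31.4 CPM in lung against 3.55, 1.61 and 1.37 CPM in the KP line. All lung samples lay above all cell line samples, and the means were 21.7 ± 10.3 CPM in lung and 2.18 ± 1.19 CPM in the KP line (SD, n = 3 each). The log2 fold change was 3.31 (SE 0.53, edgeR adjusted p = 0.00127). Tgfb3, which is needed in the mouse for palate fusion and lung maturation, had 62.7, 39.0 and 72.6 CPM in lung and 11.2, 19.5 and 17.9 CPM in the KP line. Its groups were also separate, with a log2 fold change of 1.84 (SE 0.34, edgeR adjusted p = 0.00241). Of the 3 ligands, Tgfb2 had the largest log2 fold change and was the lowest in both groups by TPM, a scaled count that is divided by transcript length.

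Because counts depend on length, levels of different genes were compared in TPM. Tgfb1 stood at 81.0 ± 16.6 TPM in lung and 82.7 ± 7.48 TPM in the cell line. Tgfb3 stood at 33.1 ± 14.8 TPM in lung and 8.51 ± 2.26 TPM in the cell line, and Tgfb2 at 8.47 ± 5.03 TPM in lung and 0.809 ± 0.509 TPM in the cell line. As a share of ligand TPM, Tgfb1 made up 64.2, 76.2 and 62.3% in the lung samples and 91.0, 89.1 and 89.7% in the cell line samples. Tgfb3 made up 26.0 ± 5.22% in lung and 9.14 ± 1.62% in the cell line, whose ligand pool was thus mostly Tgfb1. Tgfb2 held 6.44 ± 2.41% in lung and 0.924 ± 0.683% in the cell line. For each of these 3 shares the groups were separate, with an exact permutation p of 0.1, two-sided, the smallest that 3 against 3 samples can give, and 0.111 after adjustment over the 10 shares tested. The sum of the ligands was 123 ± 36.3 TPM in lung and 92.0 ± 9.25 TPM in the cell line, with overlapping samples (exact permutation p = 0.3, adjusted p = 0.4 over 3 sums). The difference of 30.6 TPM was 50.4 TPM without lung replicate 2 and 14.8 TPM without lung replicate 3.

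The start windows of Tgfb1 and Tgfb2 are shown because they belong to the ligand with the smallest and the ligand with the largest difference between lung and cell line. Each is the stretch of 250 bases before the RefSeq start, 5′ to 3′ on the gene's strand (GRCm38.p6), with matches to a GC box (GGGCGG), an AP-1 site (TGANTCA), a Smad box (GTCTAGAC) or a TATA box (TATAAA) on either strand in capitals.
Tgfb1, chr7:25686752-25687001, plus strand: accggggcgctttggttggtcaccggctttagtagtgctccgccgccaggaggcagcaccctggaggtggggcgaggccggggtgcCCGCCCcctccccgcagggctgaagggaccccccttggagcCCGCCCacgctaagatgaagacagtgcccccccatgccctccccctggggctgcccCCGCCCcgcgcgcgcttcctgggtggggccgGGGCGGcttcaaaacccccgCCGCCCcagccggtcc
Tgfb2, chr1:186705990-186706239, minus strand: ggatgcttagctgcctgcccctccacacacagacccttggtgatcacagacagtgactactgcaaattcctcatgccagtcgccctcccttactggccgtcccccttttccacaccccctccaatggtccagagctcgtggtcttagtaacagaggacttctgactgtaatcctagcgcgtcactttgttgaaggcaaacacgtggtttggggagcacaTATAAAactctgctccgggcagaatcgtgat
The Tgfb1 window held 5 GC boxes and 21 CG dinucleotides, and that of Tgfb2 held 1 TATA box, no GC box and 8 CG dinucleotides. Over all 32851 RefSeq start windows, 32.7% held a GC box, 12.4% a TATA box, 6.75% an AP-1 site and 0.167% a Smad box, and the median was 6 CG dinucleotides. These matches describe the letters only.

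**Figure D2:**
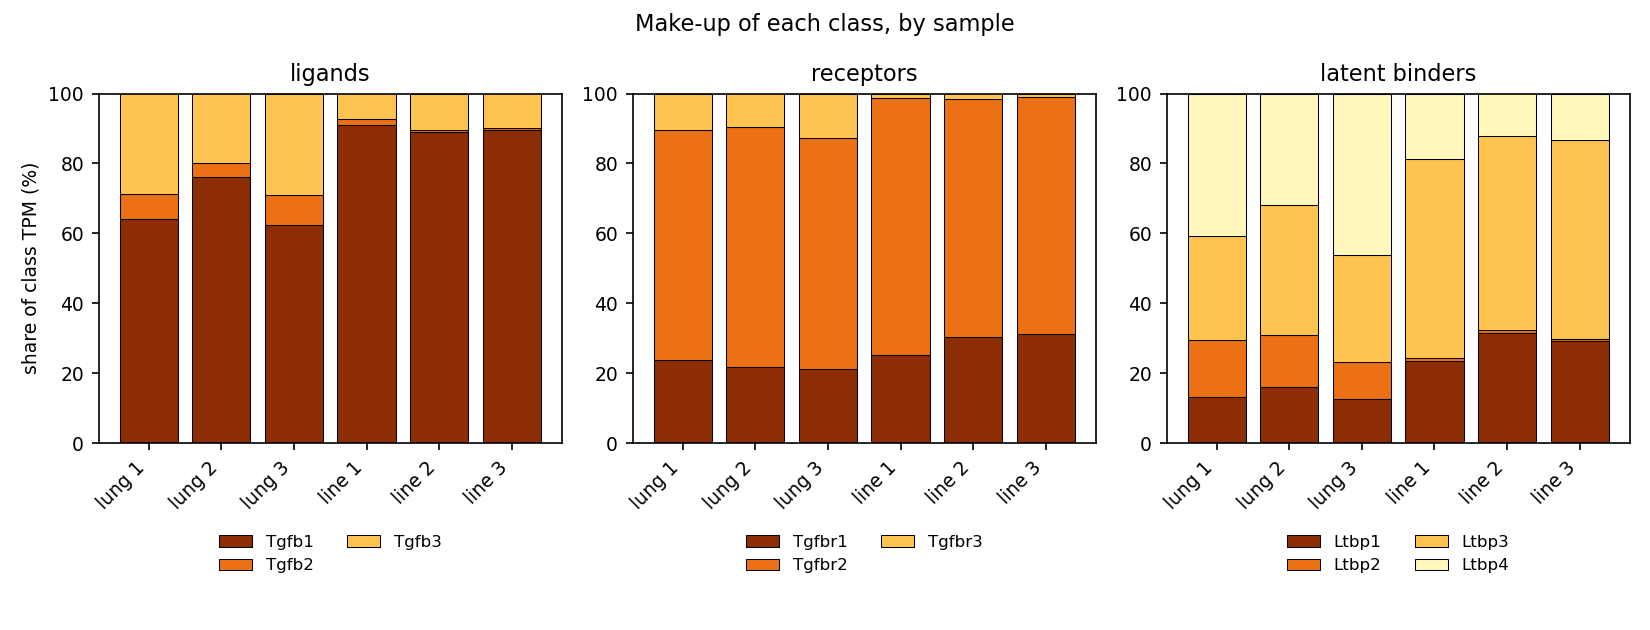
Share of each gene in the summed TPM of ligands, receptors and latent binders, stacked for each sample, with the 3 lung samples left of the 3 cell line samples. Tgfb1 fills 62.3 to 76.2% of the ligand bars of lung and 89.1 to 91.0% of those of the cell line, and Ltbp2 and Ltbp4 take more of the latent binder bars in lung.

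Of the receptors, Tgfbr3 was higher in lung, Tgfbr2 lay above the cell line without passing the threshold, and Tgfbr1 did not separate the groups. Tgfbr3 had 57.4, 23.5 and 73.4 CPM in lung and 4.48, 4.43 and 3.48 CPM in the KP line. Every lung sample lay above every cell line sample, the lowest lung value being that of replicate 2. The log2 fold change was 3.64 (SE 0.45, edgeR adjusted p = 3.29e-04), which corresponds to a 12.4-fold higher level in lung.

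Tgfbr2, the ligand-binding kinase receptor, was the most abundant receptor gene in both groups. It had 379.6, 204 and 399 CPM in lung and 199.9, 175 and 183 CPM in the KP line. The groups were separate, though lung replicate 2 lay just above the highest cell line value, and the log2 fold change was 0.82 (SE 0.31, 95% interval 0.10 to 1.53, edgeR adjusted p = 0.0603). Without lung replicate 2 it was 1.01 with an edgeR adjusted p of 0.00298. The call for Tgfbr2 was thus decided by 1 library and by the setting, since scaling by library size alone also put it past the threshold (log2 fold change 1.05, adjusted p = 0.0281).

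Tgfbr1, the type I receptor kinase that phosphorylates the Smads, had 122, 50.1 and 115 CPM in lung and 72.0, 82.1 and 88.9 CPM in the KP line. Lung replicate 2 lay below all cell line samples and the other lung samples above them. Its log2 fold change was 0.24 (SE 0.35, 95% interval -0.57 to 1.05, edgeR adjusted p = 0.596), and without lung replicate 2 it was 0.49 (adjusted p = 0.0398).

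Among the receptors, shares of TPM were close between the lung samples. Tgfbr2 made up 66.8 ± 1.57% of receptor TPM in lung and 69.8 ± 3.22% in the cell line, with overlapping samples (exact permutation p = 0.3). Tgfbr1 made up 22.3 ± 1.34% in lung and 28.9 ± 3.31% in the cell line, with all lung samples below. Tgfbr3 made up 10.9 ± 1.66% in lung and 1.30 ± 0.209% in the cell line, with all lung samples above (exact permutation p = 0.1 for Tgfbr1 and for Tgfbr3, 0.111 adjusted over 10). The receptors summed to 147 ± 77.5 TPM in lung and 93.0 ± 4.06 TPM in the cell line, with overlapping samples (exact permutation p = 0.4). The difference of 54.1 TPM was 98.7 TPM without lung replicate 2, 35.0 TPM without lung replicate 1 and 28.6 TPM without lung replicate 3.

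The latent binders divided by gene. Ltbp2 and Ltbp4 were higher in lung, while Ltbp1 and Ltbp3 had lower means in lung and were not called. Ltbp2, which among these proteins is known not to bind latent TGF-beta and instead takes part in elastic fibre assembly, differed most of all 10 genes. It had 171, 62.5 and 125 CPM in lung and 5.51, 6.45 and 4.27 CPM in the KP line, so that the lowest lung sample was well above the highest cell line sample. The log2 fold change was 4.46 (SE 0.44, edgeR adjusted p = 1.09e-04), or 22.1-fold higher in lung.

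Ltbp4, whose loss in mice is known to disturb elastic fibres of the lung, had 245, 60.2 and 274 CPM in lung against 71.1, 68.0 and 66.7 CPM in the KP line. Lung replicate 2 lay below all 3 cell line samples and the other lung samples far above them. The log2 fold change was 1.49 (SE 0.50, edgeR adjusted p = 0.0390). The call was lost when any sample other than lung replicate 2 was left out (adjusted p between 0.0997 and 0.109) and with limma-voom (adjusted p = 0.0935). Without lung replicate 2 the log2 fold change was 1.86 (adjusted p = 2.91e-04).

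Ltbp1, the binder that carries latent TGF-beta in many cell types, had 122, 40.1 and 116 CPM in lung and 109, 194 and 195 CPM in the KP line. Only replicate 1 of the line fell within the lung range. The log2 fold change was -0.84 (SE 0.45, 95% interval -1.87 to 0.18, edgeR adjusted p = 0.152). Ltbp3, known for its part in bone and tooth development, had 160.4, 60.3 and 169 CPM in lung and 203, 271 and 275 CPM in the KP line. All of its lung samples lay below all cell line samples, and the log2 fold change was -0.94 (SE 0.40, 95% interval -1.87 to -0.02, edgeR adjusted p = 0.0835). It passed the threshold as lower without lung replicate 2 (log2 fold change -0.66, adjusted p = 0.0331), and with the replicate number as a block it was -1.06 (adjusted p = 0.0328).

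**Figure D3:**
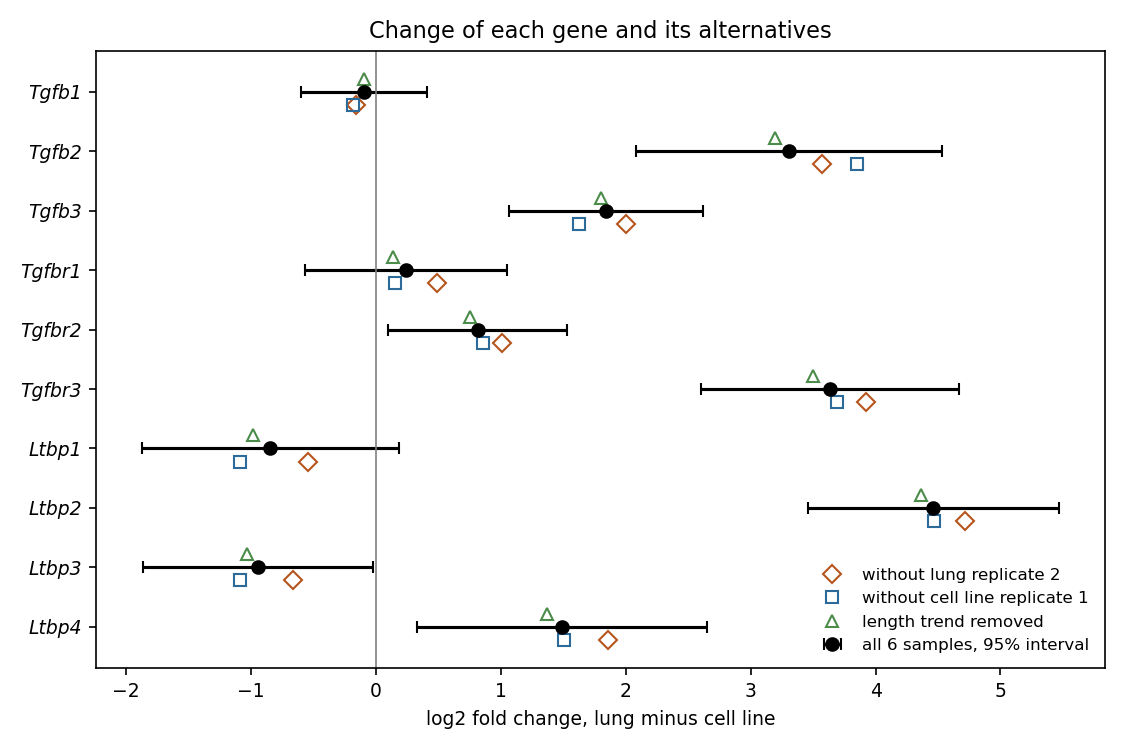
Log2 fold change of each gene, lung minus cell line, with its 95% interval from the fit on all 6 samples, and with lung replicate 2 left out, cell line replicate 1 left out or the length trend removed. The intervals of Tgfb2, Tgfb3, Tgfbr3 and Ltbp2 lie clear of 0 by more than 1 unit, and those of Tgfb1, Tgfbr1 and Ltbp1 include 0.

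In shares of latent binder TPM, Ltbp4 and Ltbp3 led in lung, and Ltbp3 and Ltbp1 led in the cell line. With protein-coding transcripts alone, Ltbp4 (39.1%) and Ltbp2 (24.5%) led in lung and Ltbp3 held 19.2% there, against 51.6% for Ltbp3 in the cell line. Ltbp3 made up 32.5 ± 4.05% in lung and 56.4 ± 0.672% in the cell line. Ltbp1 made up 13.9 ± 1.80% in lung and 28.1 ± 4.10% in the cell line. Ltbp4 made up 39.6 ± 7.12% in lung and 14.8 ± 3.56% in the cell line, and Ltbp2 made up 14.0 ± 2.99% in lung and 0.770 ± 0.166% in the cell line. The groups were separate for all 4 shares, each with an exact permutation p of 0.1 (0.111 adjusted over 10), and they were also separate in CPM and with protein-coding transcripts alone. The sum of the 4 binders was 286 ± 170 TPM in lung and 201 ± 37.4 TPM in the cell line, with overlapping samples (exact permutation p = 0.4). With protein-coding transcripts alone it was 173 TPM in lung and 166 TPM in the cell line. The difference of 85.6 TPM was 184 TPM without lung replicate 2, 41.0 TPM without lung replicate 1 and 32.2 TPM without lung replicate 3.

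Across all 10 genes in TPM, lung samples had Ltbp4 on top at 121 TPM, followed by Tgfbr2 at 97.5, Ltbp3 at 88.5 and Tgfb1 at 81.0 TPM, then Ltbp2, Ltbp1, Tgfb3, Tgfbr1, Tgfbr3 and Tgfb2. In that order only Tgfb1 lay above its next neighbour, Ltbp2, in all 3 samples without overlap between their ranges. In the cell line Ltbp3 led at 113 TPM, followed by Tgfb1 at 82.7, Tgfbr2 at 65.0, Ltbp1 at 57.2, Ltbp4 at 28.8, Tgfbr1 at 26.8 and Tgfb3 at 8.51 TPM, and Ltbp2, Tgfbr3 and Tgfb2 stood last between 0.809 and 1.51 TPM. Neighbours whose ranges overlapped there were Tgfbr2 and Ltbp1, Ltbp4 and Tgfbr1, and Tgfbr3 and Tgfb2. Counting protein-coding transcripts alone, Tgfbr2 at 97.5 TPM and Tgfb1 at 78.6 TPM stood above Ltbp4 at 70.0 TPM in lung. Ltbp3 then stood below Ltbp2, at 33.6 TPM, and Ltbp1 below Tgfbr1, at 31.0 TPM.

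The windows of Ltbp1 and Ltbp2 are shown in the same form, since Ltbp1 has separate starts for a long and a short protein form and Ltbp2 had the largest difference of the family.
Ltbp1, first start, chr17:75005279-75005528, plus strand: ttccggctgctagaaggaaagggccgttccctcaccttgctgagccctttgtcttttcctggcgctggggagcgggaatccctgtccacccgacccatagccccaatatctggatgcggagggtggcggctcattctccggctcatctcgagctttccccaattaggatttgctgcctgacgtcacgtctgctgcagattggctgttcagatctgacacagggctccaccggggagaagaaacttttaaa
Ltbp1, second start, chr17:75178531-75178780, plus strand: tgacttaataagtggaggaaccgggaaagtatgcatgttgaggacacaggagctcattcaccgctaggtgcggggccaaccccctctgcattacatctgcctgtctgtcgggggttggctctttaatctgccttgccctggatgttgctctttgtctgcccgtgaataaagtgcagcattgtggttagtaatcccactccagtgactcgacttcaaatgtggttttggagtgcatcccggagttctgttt
Ltbp2, chr12:84876492-84876741, minus strand: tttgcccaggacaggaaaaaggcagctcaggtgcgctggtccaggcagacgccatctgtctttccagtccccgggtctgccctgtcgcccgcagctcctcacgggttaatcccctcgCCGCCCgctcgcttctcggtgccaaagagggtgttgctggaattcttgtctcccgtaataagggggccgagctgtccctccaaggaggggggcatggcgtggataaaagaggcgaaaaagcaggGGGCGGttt
The Ltbp1 windows held no match to the 4 motifs and 12 and 7 CG dinucleotides, and the Ltbp2 window held 2 GC boxes and 16 CG dinucleotides. Of the coding TPM of Ltbp1, the second start, which gives the short form, held 84.1, 97.0 and 86.9% in lung and 80.2, 86.2 and 87.5% in the cell line. These ranges overlapped, so no difference in start use was seen beyond the spread between samples. RefSeq start windows were matched for 8 of the 10 genes, all but Tgfb3 and Tgfbr3.

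The table is per transcript, so the make-up of each gene could be followed, although the quantification divides shared reads between transcripts and these shares are estimates. Tgfbr2 and Ltbp3 showed the largest differences in their leading transcripts. The long transcript of Tgfbr2, Tgfbr2-202, made up 61.7, 84.2 and 63.3% of the gene's TPM in lung and 34.8, 36.5 and 33.6% in the cell line. The other transcript, Tgfbr2-201, ends 4636 nucleotides before the 3′ end of Tgfbr2-202 and made up the rest. All lung samples lay above all cell line samples, with a difference of 34.7 percentage points (exact permutation p = 0.1, adjusted p = 0.16 over 8 genes with more than 1 transcript). In counts Tgfbr2-202 held 83.8% of the gene in lung and 55.6% in the cell line, so it was the larger part in both groups by that measure. Tgfbr1-202, a shorter coding transcript of Tgfbr1, made up 0, 1.75 and 1.004% of that gene in lung and 13.1, 11.3 and 14.7% in the cell line, again with separate groups.

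In Ltbp3 the full-length coding transcript, Ltbp3-201, made up 30.4, 16.0 and 27.2% of gene TPM in lung and 68.1, 63.7 and 59.4% in the cell line. The next transcript was Ltbp3-202, annotated as a retained intron with the same 3′ end, with 42.8, 71.3 and 49.4% in lung against 9.75, 16.7 and 12.9% in the cell line. With protein-coding transcripts alone, a choice made after these levels had been seen, Ltbp3 was lower in lung (log2 fold change -1.61, edgeR adjusted p = 0.0277) Tgfbr2 was higher (log2 fold change 0.87, edgeR adjusted p = 0.0462), and Ltbp2, Ltbp4, Tgfb2, Tgfb3 and Tgfbr3 kept their calls, beside 31.2% of genes called higher and 17.7% lower in that fit. Ltbp1-206, another retained intron transcript, made up 11.2, 50.9 and 14.8% of Ltbp1 in lung and 0.257, 1.22 and 0.458% in the cell line. Lung replicate 2 had the highest share of both retained intron transcripts. The part of RNA quality or unspliced RNA in these shares was not tested.

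In Ltbp4 the share of the leading transcript separated the groups in TPM and overlapped between them in counts. The coding transcript Ltbp4-205 made up 58.5, 52.3 and 56.2% of gene TPM in lung and 78.5, 84.3 and 60.9% in the cell line, and the balance lay with Ltbp4-208, a retained intron transcript of 550 nucleotides. That short transcript held 7.55% of the Ltbp4 counts in lung and 2.33% in the cell line, and in counts the share of Ltbp4-205 was 90.6% in lung and 89.2% in the cell line. Ltbp2-202, which differs little in length from the leading Ltbp2-201, made up 11.1, 54.5 and 15.6% of Ltbp2 in lung and was listed at 0 in the cell line. Tgfb1 was almost a single transcript, with Tgfb1-201 at 97.0 ± 0.348% in lung and 97.4 ± 1.72% in the cell line, and Tgfb3 and Tgfbr3 had only 1 transcript in the table.

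**Figure D4:**
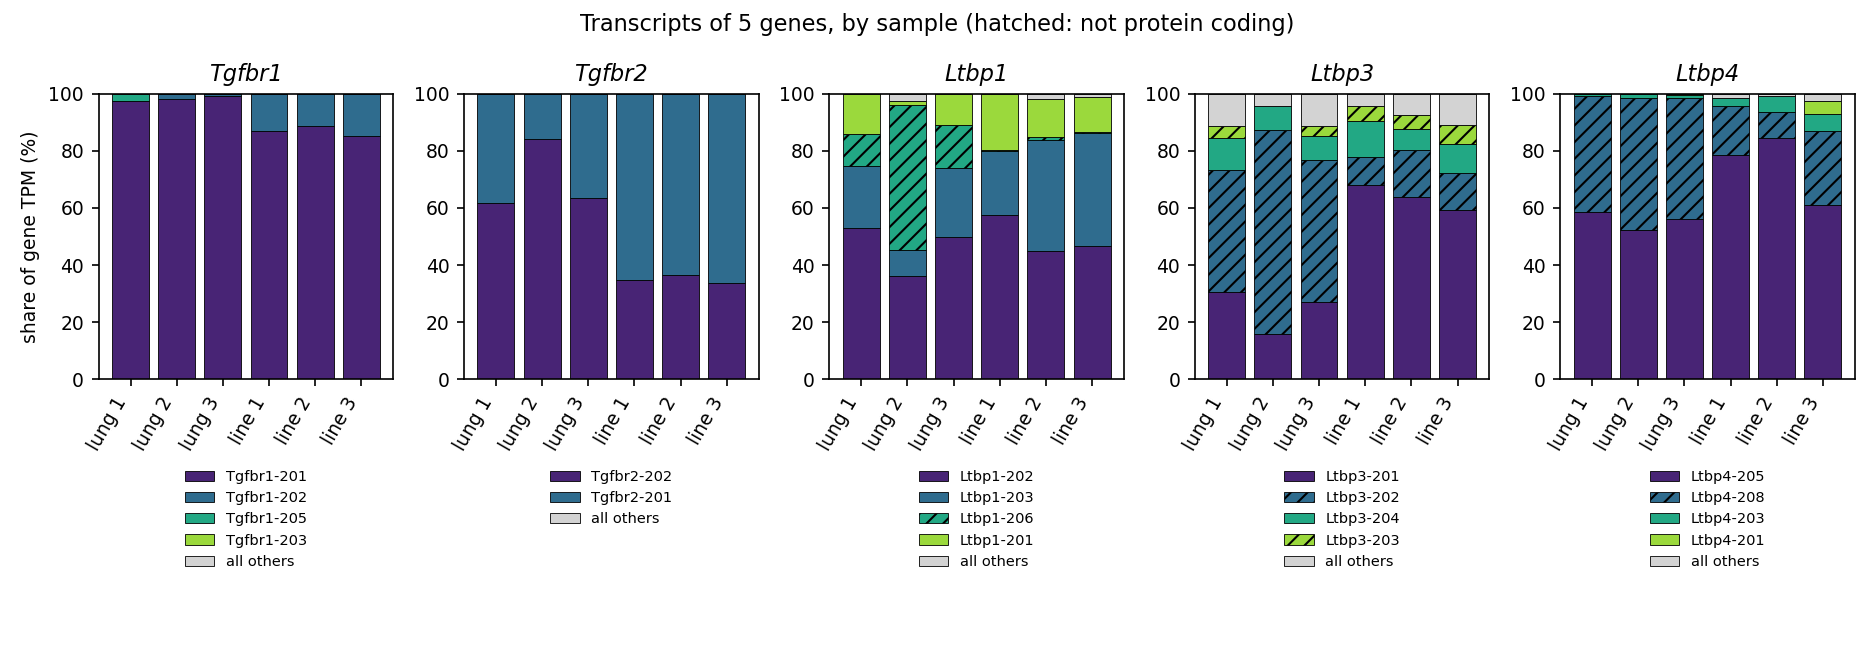
Share of each transcript in the TPM of Tgfbr1, Tgfbr2, Ltbp1, Ltbp3 and Ltbp4, stacked for each sample with lung left of the cell line. Hatched parts are transcripts not annotated as protein coding and grey is all other transcripts. Tgfbr2-202 fills 61.7 to 84.2% of the lung bars and 33.6 to 36.5% of the cell line bars.

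Genes that process, store or release latent TGF-beta were mixed. Of 17 tested of the 18 listed, 7 were higher in lung, 1 was lower and 9 did not pass the threshold, with a median log2 fold change of 0.34. Over all genes tested, 31.3% were higher and 17.5% lower, with a median of 0.08, and these shares stand beside the counts of the other lists too. Itgb6, the integrin chain that releases latent TGF-beta on epithelium, stood at 44.0 ± 8.68 CPM in whole lung and 1.17 ± 0.406 CPM in the KP line (log2 fold change 5.24, edgeR adjusted p = 3.65e-05). Fbn1, the fibrillin to which the latent binders attach, stood at 169 ± 75.1 CPM in whole lung and 8.60 ± 1.84 CPM in the KP line (4.29, edgeR adjusted p = 1.43e-04), and the matrix protease Mmp2 stood at 131 ± 57.8 CPM in whole lung and 0.354 ± 0.210 CPM in the KP line (8.53, adjusted p = 3.73e-05). Lrrc32 and Nrros, which tether latent TGF-beta to the surface of regulatory T cells and of myeloid cells, Mmp9 and Emilin1 were the other 4 that were higher. Fn1, fibronectin, was the gene that fell, at 849 ± 410.4 CPM in whole lung and 2372 ± 200.2 CPM in the KP line (log2 fold change -1.48, edgeR adjusted p = 0.0233), and it no longer passed when cell line replicate 2 was left out (adjusted p = 0.0509) or replicate 3 (adjusted p = 0.0572). Furin stood at 118 ± 34.5 CPM in whole lung and 236 ± 86.4 CPM in the KP line and did not pass the threshold (adjusted p = 0.0560).

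Of 8 listed co-receptors, decoys, extracellular inhibitors and other receptor or receptor-associated genes, 6 were higher in lung, none was lower and 2 did not pass, with a median log2 fold change of 3.76. Acvrl1, the endothelial type I receptor known as ALK1, stood at 282 ± 90.2 CPM in whole lung and 1.07 ± 0.356 CPM in the KP line (log2 fold change 8.02, edgeR adjusted p = 2.13e-05). The matrix proteoglycans that bind TGF-beta were also higher, with Dcn (decorin) at 122 ± 36.1 CPM in whole lung and 0.988 ± 0.439 CPM in the KP line (6.94), and Bgn (biglycan) at 781 ± 286 CPM in whole lung and 288 ± 22.9 CPM in the KP line (1.44, edgeR adjusted p = 0.00858). Eng, Bambi and Fmod made up the 6, and Cd109 and Tgfbrap1 did not pass.

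The Smads and their regulators had more lower than higher genes. Of 14 tested, 1 was higher in lung, 6 were lower and 7 did not pass, with a median log2 fold change of -0.83. Smad3, a receptor-activated Smad, stood at 70.8 ± 21.3 CPM in whole lung and 195 ± 10.05 CPM in the KP line (log2 fold change -1.46, edgeR adjusted p = 0.00375). The corepressor Tgif1 stood at 54.1 ± 1.99 CPM in whole lung and 175 ± 5.29 CPM in the KP line (-1.69), and Pmepa1, a feedback inhibitor induced by the pathway, at 111 ± 5.36 CPM in whole lung and 343 ± 63.0 CPM in the KP line (-1.62, edgeR adjusted p = 0.00111). Skil, Smurf1 and Tgif2 were the other lower genes. Smad6, an inhibitory Smad mainly of the BMP branch, was the higher one at 50.8 ± 10.3 CPM in whole lung and 13.5 ± 1.56 CPM in the KP line (1.91, edgeR adjusted p = 5.44e-04). Without lung replicate 2, 10 of the 14 were lower, beside 24.3% of all genes in that fit and 17.5% with all samples.

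Of 13 genes that TGF-beta is known to induce, 9 were higher in lung, 1 was lower and 3 did not pass, with a median log2 fold change of 3.44. Postn, a matricellular protein of fibroblasts, stood at 247 ± 97.5 CPM in whole lung and 0.337 ± 0.227 CPM in the KP line (log2 fold change 9.47, edgeR adjusted p = 3.14e-05). The collagen genes Col1a1, at 327 ± 187 CPM in whole lung and 5.46 ± 0.966 CPM in the KP line, and Col1a2, at 460.0 ± 247 CPM in whole lung and 6.58 ± 2.27 CPM in the KP line, had log2 fold changes of 5.90 and 6.12. Itgae, an integrin chain of resident T cells and dendritic cells, stood at 22.4 ± 8.03 CPM in whole lung and 0.307 ± 0.0719 CPM in the KP line (6.15). Cdkn2b, a cell cycle inhibitor, was lower at 34.8 ± 13.0 CPM in whole lung and 114 ± 47.2 CPM in the KP line (-1.71, edgeR adjusted p = 0.00718). Ccn2, a matricellular protein often used as a readout of the pathway, did not pass (adjusted p = 0.440), at 186 ± 31.5 CPM in whole lung and 229 ± 69.6 CPM in the KP line.

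**Figure D5:**
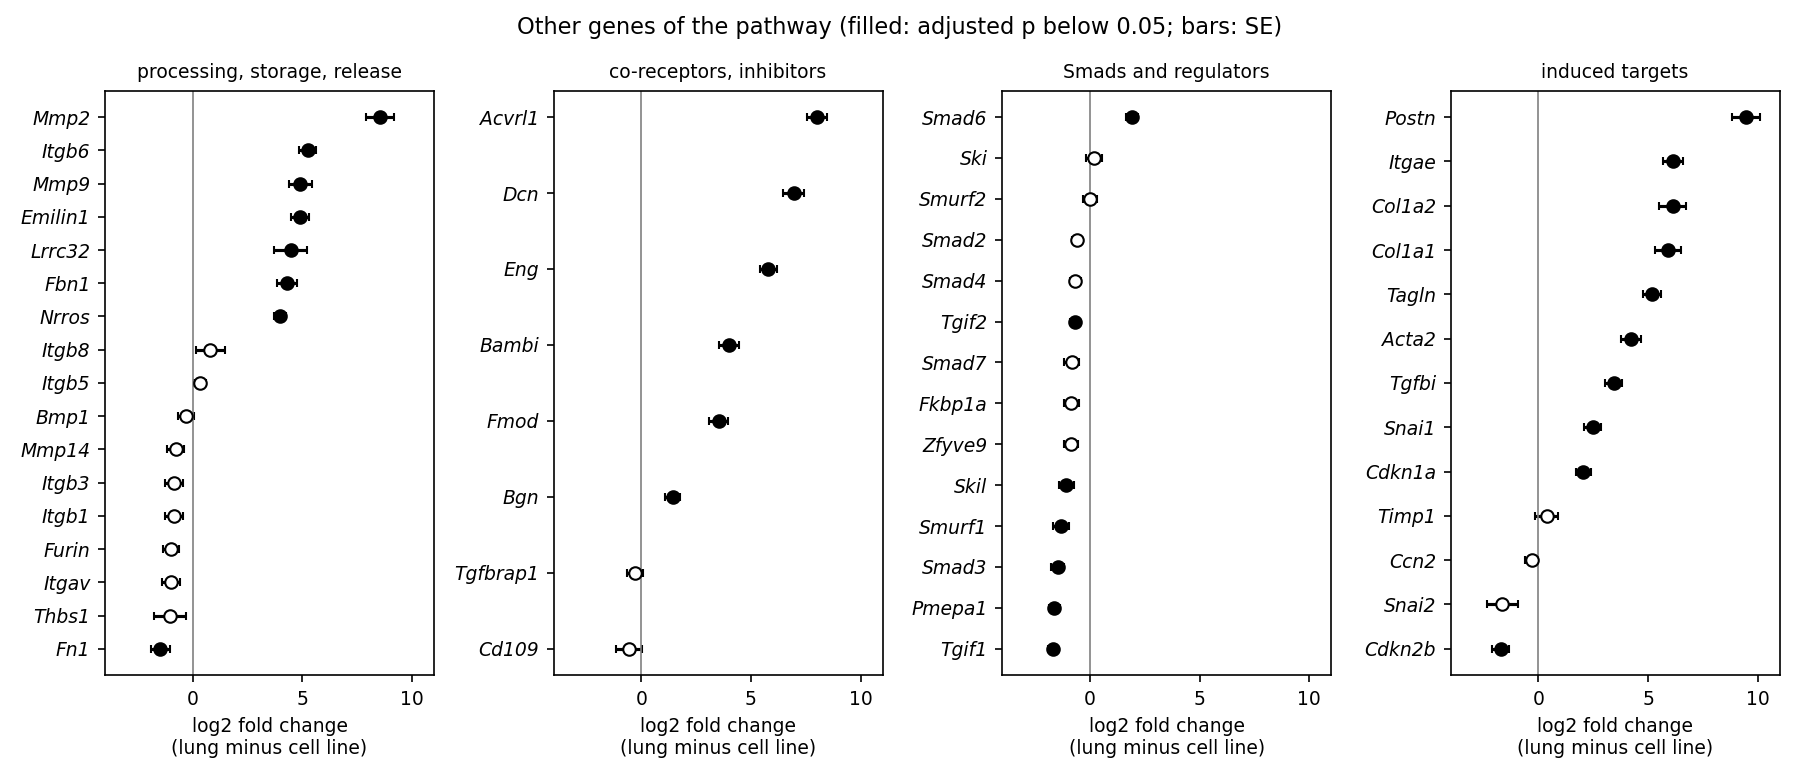
Log2 fold change, lung minus cell line, of the genes of the 4 lists with its SE, with filled points at an adjusted p below 0.05. Co-receptors and inhibitors and the induced targets lie mostly to the side of lung, and 6 of the 14 Smads and regulators are filled on the side of the cell line.

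Markers of stromal cells, which are among the known sources of genes of this family and of the collagens, differed between the same samples. Of 8 fibroblast markers, 7 were higher in lung, summing to between 1803 and 3186 CPM in lung and between 392 and 909 CPM in the KP line, and Lum and Inmt were at 0 counts in all cell line samples. The cell line sum was mostly Npnt, at 524, 197 and 557 CPM in lung and 382, 849.5 and 903 CPM in the KP line, which did not pass the threshold. All 7 smooth muscle and pericyte markers were higher, at 233 to 407 CPM in lung and 5.69 to 10.6 CPM in the cell line, as were all 9 endothelial markers. Macrophage and monocyte markers summed to between 6723 and 8873 CPM in lung and between 125 and 247 CPM in the KP line, with 7 of 8 higher. The other, Mrc1, had 119, 47.5 and 127 CPM in lung and 31.3, 163 and 173 CPM in the KP line. It made up most of the sum in cell line replicates 2 and 3. Platelets, which store TGF-beta, had 5 of 5 markers higher, summing to between 50.6 and 56.4 CPM in lung and between 7.06 and 8.70 CPM in the cell line. T cell markers were higher in 8 of 8, at 157 to 193 CPM in lung and 10.7 to 20.999 CPM in the cell line. Alveolar epithelial markers were higher in 7 of 8, at 13414 to 21590.1 CPM in lung and 68.6 to 182 CPM in the cell line. That cell line sum was nearly all Aqp5, the marker that did not pass the threshold. Aqp5 had 129, 207 and 162 CPM in lung and 66.1, 167 and 175 CPM in the KP line. The part of any of these cell types in the levels of the TGF-beta genes was not tested.

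Lymphoid transcripts differed between cell line replicates 2 and 3, whose log2 CPM correlated at 0.991 over genes, and genes are not separate replicates. These replicates were compared because earlier results of these data had shown B and T cell transcripts falling between them. The ratio of cell line replicate 3 over replicate 2 was below 1 in 14 of 14 B, plasma and T cell markers with a count, and 0.579 over all of them pooled. That fall was thus known beforehand and is no test, and the share of all genes below 1 is not given here. The same ratio was 0.999 for Tgfb1 (95% interval 0.937 to 1.06, counting error only) and 0.662 for Ltbp2 (0.491 to 0.888). For Tgfbr3 it was 0.784 (0.556 to 1.10) and for Tgfb2 0.849 (0.478 to 1.5), and the other 6 genes lay between 0.920 and 1.08. The interval of Ltbp2 lay wholly below 1, and that of Tgfbr1, with a ratio of 1.08 (1.01 to 1.16), wholly above 1. Markers of other cell types also differed between replicates 2 and 3 of the line. Endothelial markers summed to 12.4 and 8.48 CPM there, and smooth muscle and pericyte markers to 7.66 and 5.69 CPM. Macrophage and monocyte markers summed to 247 and 225 CPM. Fibroblast markers, mostly Npnt, summed to 857 and 909 CPM, and alveolar markers, nearly all Aqp5, to 175 and 182 CPM. The part of lymphoid RNA, or of RNA of other cell types, in the cell line level of Ltbp2 was not tested.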

How the data were processed

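RNA was sequenced from 6 samples, 3 Lung_KP and 3 CellLine_KP. The authors deposited estimated counts per transcript, and the submitters' processing notes list Salmon 1.4.0, FastQC 0.11.9, the build GRCm39 and DESeq2 1.32.0. What DESeq2 was used for, which annotation was quantified and how transcripts were filtered is not given in the sources used here. Of 76776 transcripts, 76521 matched GENCODE M21, an annotation of another build used for names, transcript types and lengths alone, and were summed to 20687 symbols. The other 255, with 0.107 to 0.416% of each library, were left out.

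Gene sums were rounded and tested with edgeR 4.0.16 in R 4.3.3 (TMM scaling, expression filter by group, robust quasi-likelihood F test, group as the only term), after the script had been checked on data with known answers. The Benjamini-Hochberg adjustment ran over 15212 genes, with a threshold of 0.05. SE is the log2 fold change over the root of F. CPM used TMM-scaled library sizes. TPM used annotated, not effective, transcript lengths, so short transcripts weigh heavily in it. Sums and shares were tested by exact permutation over samples with SciPy 1.17.1. RefSeq windows came from a table of GRCm38.p6. Their motifs were searched on both strands.

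The genes and lists were chosen with earlier results of these data known. Named pathway genes were, for each list and direction, the 2 past the threshold with the highest mean CPM and the 2 with the largest change at 1 CPM or more in the higher group, and Furin, Ccn2, Npnt, Mrc1 and Aqp5 were named after their values had been seen. Further list members are named without values or are only counted and plotted, and 1 listed target is not reported here. Alternatives were scaling by library size alone or by DESeq2 size factors, no filter on low counts, a minimum of 10 counts in every sample, limma-voom (limma 3.58.1), the Wald test of DESeq2 1.42.0, the replicate number as a block, removal of the length trend, each sample left out, lung replicate 2 and cell line replicate 1 left out together, CPM in place of TPM and protein-coding transcripts alone. Nothing states that the cell line triplicates were separate cultures, and their spread, on which the p-values rest, may be technical.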

Additional observations from a re-analysis of the deposited data

How the results depend on the processing

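The log2 fold changes of Tgfb2, Tgfb3, Tgfbr3 and Ltbp2 kept their direction and their call in all alternatives. The number of genes of the family called higher lay between 4 and 7. Over the same settings the share of all genes called higher ran from 21.3% (10 or more counts) to 43.2% (lung replicate 2 and cell line replicate 1 left out). Leaving out 1 sample moved Tgfb1 between -0.18 and -0.06, Tgfbr1 between 0.0278 and 0.49, Tgfbr2 between 0.65 and 1.01, Ltbp1 between -1.09 and -0.55, Ltbp3 between -1.18 and -0.66 and Ltbp4 between 1.16 and 1.86. Tgfb1 turned sign with library size alone (0.14) and with 10 or more counts in all samples (0.10). Tgfbr2 passed the threshold as higher with library size alone (1.05), 10 or more counts (0.999), the DESeq2 Wald test (0.80), the length trend removed (0.76) and protein-coding transcripts (0.87). Ltbp3 passed it as lower with the DESeq2 Wald test (-0.96), the length trend removed (-1.04) and protein-coding transcripts (-1.61), and Ltbp1 with the length trend removed (-0.98). The length trend was fitted to deviations from each group's own mean, so its removal took out spread within the groups. The SE of Tgfbr1 was 0.15 in that fit and 0.35 in the main fit. Calls with the length trend removed, here and below, are thus not comparable with those of the main fit. Ltbp4 lost its call with limma-voom (1.22). With lung replicate 2 and cell line replicate 1 both left out, Tgfbr1 (0.47), Tgfbr2 (1.12), Ltbp1 (-0.72) and Ltbp3 (-0.73) passed, but its spread came from the closest pairs, so those p-values are not comparable. The cause of these changes was not tested.

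The number of genes of the family called lower was 0, and 1 with the DESeq2 Wald test, with the block and with protein-coding transcripts, 0 to 1 without 1 sample, and 2 with the length trend removed and with both samples left out. Over the same settings the share of all genes called lower ran from 11.4% (library size alone) to 35.2% (both samples out). Over all genes, 4758 were higher and 2664 lower. These counts were 2555 and 1701 with 10 or more counts, where fewer genes were tested, and those lower were 1728 with library size alone, which shifted the median log2 fold change of all genes by 0.23, 4120 with the length trend removed and 5425 with both samples out. Leaving out 1 sample gave between 1820 and 3773 lower. Of the release genes, 1 was lower, and 2 without the filter, 3 with the DESeq2 Wald test, 6 with the length trend removed, 8 with both samples out and 0 to 2 without 1 sample. Of the Smads and regulators, 6 were lower, and 11 with the DESeq2 Wald test, the length trend removed or both samples out, and 4 to 10 without 1 sample, and 3 were higher with both out. Of the induced targets, 1 was lower, and 2 with the DESeq2 Wald test, 1 to 2 without 1 sample and 3 with both out.

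The difference in the share of the leading transcript turned sign in 4 genes. That of Ltbp1 was -3.41 points, and 1.69 by counts and 5.56 with both samples out, and between -6.80 and 1.68 without 1 sample. That of Ltbp4 was -18.9 points and 1.404 by counts. That of Tgfb1 was -0.37 and 0.0492 with both out, and between -1.36 and 0.193 without 1 sample, and that of Tgfb2 was 7.71 and -3.71 with both out, and between -3.58 and 13.4 without 1 sample. The share of Tgfbr2 among receptors was -3.01 points in TPM and 1.19 in CPM.

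The labels do not state a pairing of samples by replicate number, so the main fit had no block. Deviations from the group means of same-numbered samples correlated at -0.04, 0.08 and -0.08. With 3 samples in each group these values cannot decide whether the samples were paired. With the replicate block, 4634 genes were higher and 2526 lower, Ltbp3 passed as lower (-1.06) and 3 release genes were lower.

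Depth limited the cell line levels of Tgfb2, Tgfbr3 and Ltbp2, which rested on 26 to 118 counts a sample, whereas every other gene of the family had at least 240 counts in each sample.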
